A study of Homo sapiens with 6 samples.

Results

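The SLC25 family of mitochondrial carriers was described in LNCaP cells, a human prostate cancer line, after long exposure to enzalutamide. Members were taken by name: protein-coding genes on primary chromosomes whose symbol is SLC25A followed by a number. This gave 40 members of 18164 genes tested, or of 12745 protein-coding genes on primary chromosomes. GENCODE 29 lists 48 such symbols, and SLC25A2, SLC25A6, SLC25A24, SLC25A26, SLC25A31, SLC25A43, SLC25A47 and SLC25A52 are not analysed here.

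Enzalutamide is a drug against prostate cancer that blocks androgen signalling. Poly(A) RNA was sequenced from 3 samples of cells kept in 5 µM enzalutamide for 14 days and from 3 samples given the vehicle dimethyl sulfoxide (DMSO) at 0.1%. Both groups were the same line, seeded at 150000 cells in RPMI medium with 10% serum, with medium renewed every 72 h. The DMSO cells were collected at 70 to 80% confluency. The labels give neither the density of the enzalutamide cells nor the culture time of the DMSO cells, so drug, density and time in culture cannot be told apart. A cell line is a single lineage grown without its tissue, and the labels do not call the replicates separate cultures. The p-values therefore reflect only how much these samples vary, possibly for technical reasons.

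Total counts per library were 42302153 to 52107644 with enzalutamide and 35578160 to 42540487 in DMSO. Transcripts of the mitochondrial genome took 12.1 to 15.7% of counts with enzalutamide and 10.5 to 11.2% in DMSO. The enzalutamide library of replicate 1 stood apart from the other enzalutamide libraries. Its pairs had a chi-square per degree of freedom of 73.0 and 92.5, against 13.8 for enzalutamide replicates 2 and 3 and 3.69 to 9.35 for pairs of DMSO libraries. Luminal prostate markers were present in all libraries. KLK3, an androgen-induced protease, averaged 194 CPM (read counts scaled to a common library size) with enzalutamide and 2582 CPM in DMSO. All 10 listed luminal markers were measured, and none of the 5 leukocyte or 3 brown adipocyte markers was. Markers of other cell types were at low levels and some moved with the groups. Of 7 fibroblast markers 5 were measured, of which FAP (2.11 CPM with enzalutamide and 0.0182 CPM in DMSO), COL3A1 and PDGFRB rose and COL1A1 fell, and their sum was 14.1 to 14.7 CPM with enzalutamide and 13.1 to 13.5 CPM in DMSO. Of 5 endothelial markers 3 were measured, of which EMCN (2.79 CPM with enzalutamide and 0.617 CPM in DMSO) rose and VWF fell, with sums of 9.41 to 12.3 CPM with enzalutamide and 11.2 to 13.4 CPM in DMSO. Of 3 basal markers KRT14 was measured, and fell to 1.08 CPM with enzalutamide, against 2.15 CPM in DMSO. The part of these markers in the members' changes was not tested.

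SLC25 proteins carry small molecules across the inner mitochondrial membrane, which is otherwise nearly closed to charged metabolites. They exchange ADP for ATP, bring in phosphate, move citrate, malate, glutamate and aspartate between the matrix and the cytosol, and supply the matrix with cofactors, nucleotides, iron and glutathione. The proteins are encoded in the nucleus, made in the cytosol and inserted by dedicated translocases, and several steps are shared by close paralogs. Prostate epithelium is known for making and secreting citrate.

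More members were lower than higher with enzalutamide. Of the 40 members, 6 rose (15.0%), 16 fell (40.0%) and 18 did not pass an adjusted p of 0.05 in edgeR's quasi-likelihood test with Benjamini-Hochberg adjustment over all genes. Over all genes tested, 30.0% rose and 29.2% fell, 59.2% together, so the members' total of 55.0% was near that background. SLC25A5, the member with the highest level per gene length in DMSO, fell 2.63-fold. SLC25A10, SLC25A15 and SLC25A22 were among the others that fell at least 2-fold. SLC25A29 and SLC25A34 rose at least 2-fold, and SLC25A4, SLC25A12, SLC25A17 and SLC25A35 rose by less.

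The 2 members at least 2-fold higher and the 5 at least 2-fold lower stand beside 14.7% and 12.3% of all genes. The median log2 change of the members was -0.22 (quartiles -0.60 and 0.19), against -0.0037 for all genes (quartiles -0.54 and 0.56). Groups did not overlap for 24 members (60.0%), against 66.4% of all genes. In bulk RNA, fewer cells of a type and less RNA per cell cannot be told apart. With upper quartile scaling 8 members rose and 11 fell, the median was -0.10, and the median of all genes was 0.12. No member changed direction past the threshold under any of the 15 alternatives run.

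**Figure D1:**
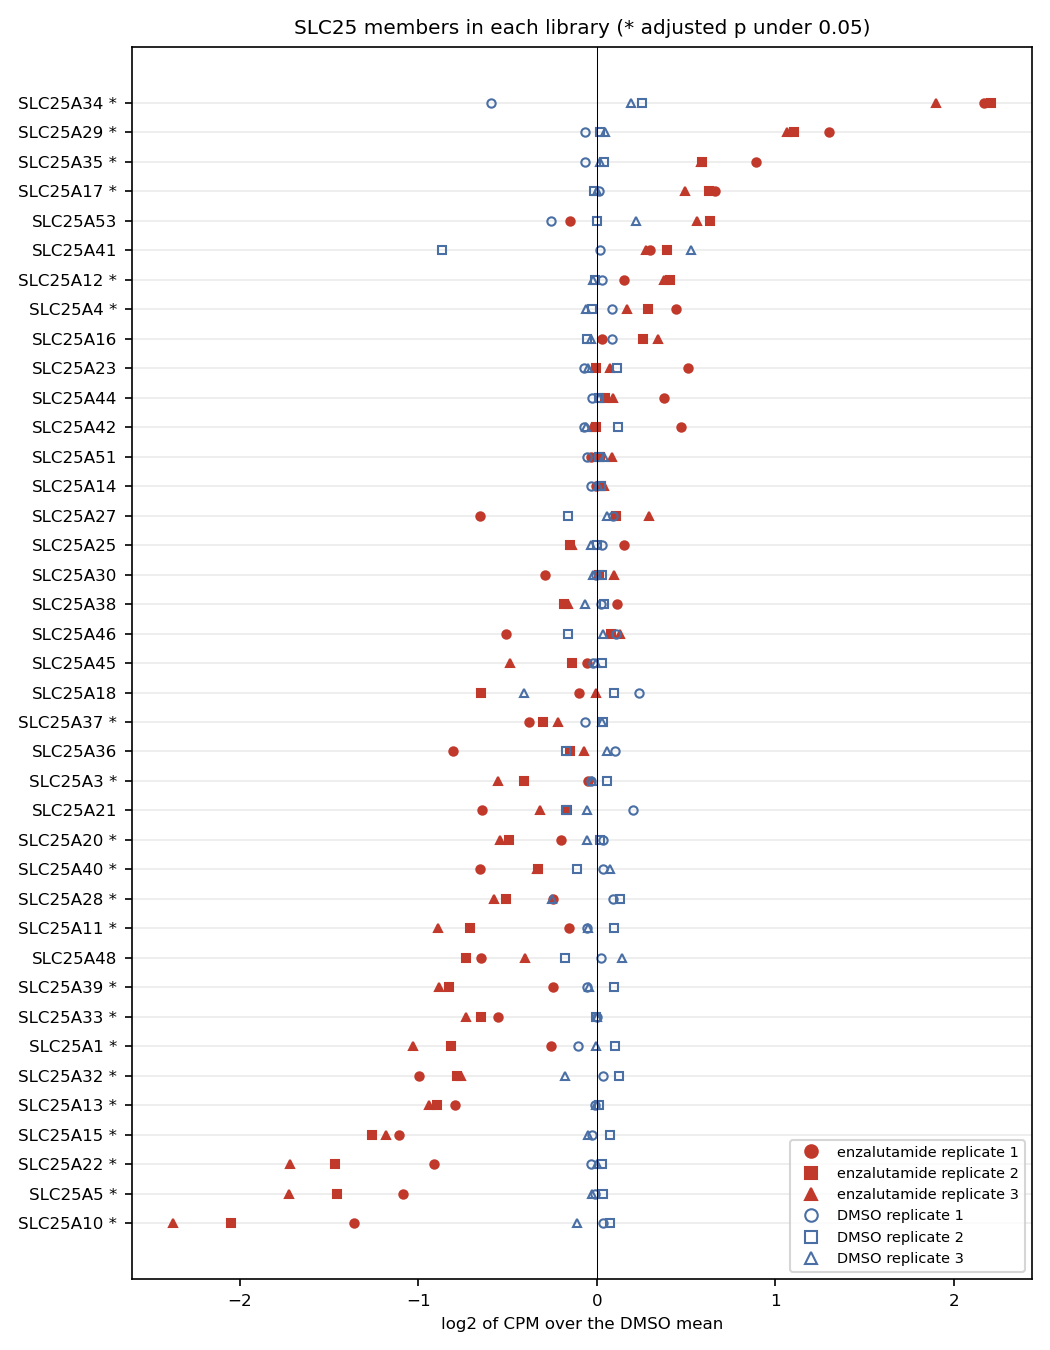
Each line is an SLC25 member (1 member is not drawn), ordered by log2 change, and the horizontal axis gives the log2 of its CPM in each library over its DMSO mean (filled red marks for enzalutamide, open blue marks for DMSO, an asterisk for an adjusted p under 0.05). SLC25A34 and SLC25A29 lie farthest to the right with enzalutamide, and, of the members drawn, SLC25A10 and SLC25A5 farthest to the left.

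Levels were compared between members as RPKM, the CPM per kilobase of gene length. Mean RPKM over all libraries spanned 0.0562 for SLC25A48 to 173 for SLC25A5. It was at least 10 for 18 members and under 1 for 5 members, SLC25A18, SLC25A34, SLC25A41, SLC25A48 and SLC25A53. SLC25A5 and then SLC25A3, the phosphate carrier, led in both groups. With enzalutamide SLC25A17, a peroxisomal cofactor carrier (42.0 ± 2.56 RPKM), came next, within the spread of SLC25A3 (45.6 ± 8.42 RPKM). SLC25A1, the citrate carrier (27.1 ± 7.85 RPKM), and SLC25A11, the oxoglutarate carrier (24.4 ± 6.73 RPKM), followed and did not differ beyond their spread. In DMSO the order after SLC25A3 was SLC25A1 (42.9 ± 3.11 RPKM), SLC25A11 (35.7 ± 2.14 RPKM), SLC25A33 (29.4 ± 0.0664 RPKM) and SLC25A17 (27.8 ± 0.291 RPKM; SD, n = 3 each). These orders rest on the deposited gene lengths, such as 1555 bases for SLC25A5 and 8896 bases for SLC25A3. In CPM, SLC25A3 was above SLC25A5 in both groups, at 406 against 148 with enzalutamide and 506 against 389 in DMSO.

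**Figure D2:**
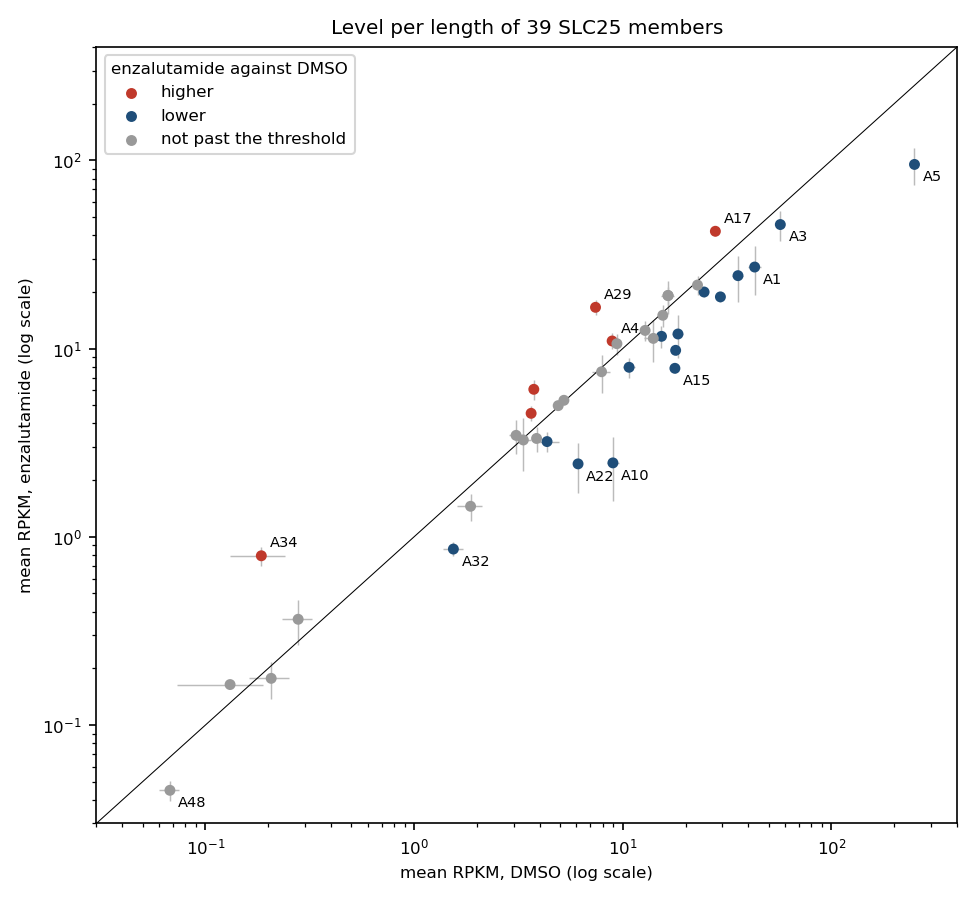
Mean RPKM of each member drawn (1 is left out) with enzalutamide (vertical axis, log scale) against DMSO (horizontal axis, log scale), with SD bars over 3 libraries and the diagonal of equal levels. SLC25A5 lies at 95.1 RPKM with enzalutamide and 250.2 RPKM in DMSO, and SLC25A10 and SLC25A22 lie below the diagonal.

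Summed over the 40 members, the level was 573, 494 and 466 RPKM in enzalutamide replicates 1, 2 and 3, against 729, 752 and 725 RPKM in DMSO. Every enzalutamide library was below every DMSO library, with means of 511 ± 55.4 RPKM with enzalutamide and 735 ± 14.8 RPKM in DMSO (SD, n = 3 each; exact two-sided permutation p = 0.1, the smallest that 3 against 3 allows). Without SLC25A5 the sum was 454, 402 and 390 RPKM with enzalutamide, against 480, 496 and 479 RPKM in DMSO. The groups still did not overlap (416 ± 34.3 RPKM with enzalutamide and 485 ± 9.46 RPKM in DMSO, SD, n = 3 each; exact permutation p = 0.1). Not divided by length, the sum over the 40 members was 2319 ± 147 CPM with enzalutamide and 2811 ± 34.7 CPM in DMSO, also without overlap. The sums were not computed under upper quartile scaling, where the members' median log2 change was -0.10 and not -0.22. The share of mitochondrial transcripts was higher in each enzalutamide library, and its part in these sums was not tested. Taking mitochondrially encoded genes out before scaling left 6 members higher and 15 lower.

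**Figure D3:**
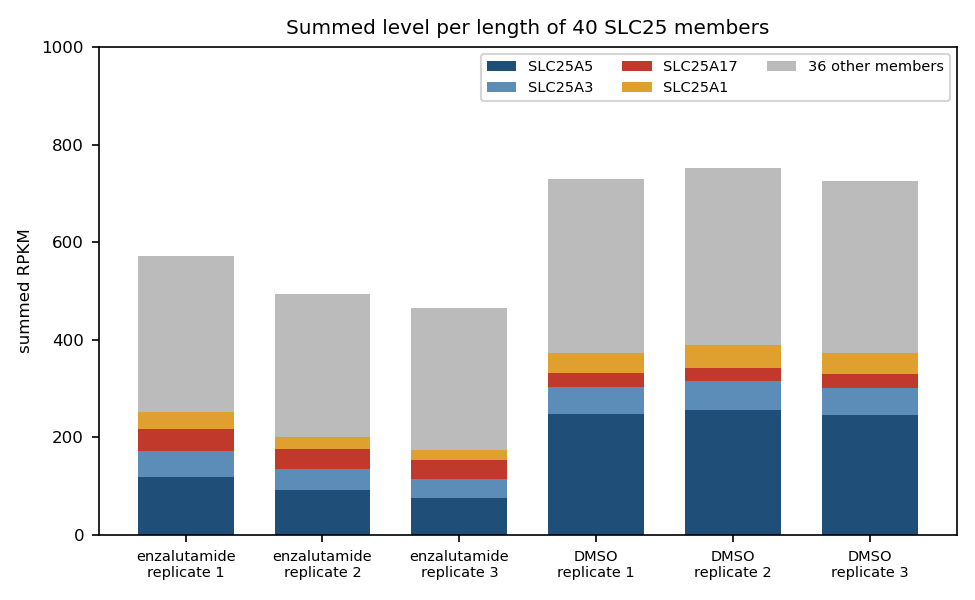
Summed RPKM of the 40 members in each library, enzalutamide left of DMSO, stacked as SLC25A5, SLC25A3, SLC25A17, SLC25A1 and all other members. The enzalutamide libraries reach 466 to 573 RPKM and the DMSO libraries 725 to 752 RPKM, and SLC25A5 holds 16.3 to 20.6% with enzalutamide and 33.9 to 34.1% in DMSO.

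The ADP/ATP carriers return ATP made in the matrix to the cytosol and bring ADP in. SLC25A5 encodes the form known as ANT2, typical of dividing cells, and SLC25A4 encodes ANT1, typical of muscle and heart. SLC25A5 (chromosome X, 119468422 to 119471396, hg38) had 184, 142 and 118 CPM in the enzalutamide libraries, against 387, 398 and 382 CPM in DMSO. All enzalutamide values were below all DMSO values, and the change was -1.40 ± 0.15 on the log2 scale (SE, edgeR adjusted p = 2.02e-05). Its level per length was 95.1 ± 21.4 RPKM with enzalutamide and 250.2 ± 5.37 RPKM in DMSO (SD, n = 3 each). GENCODE 29 lists 9 pseudogenes of SLC25A5, and reads shared with them may have been lost or split. Over 205 exonic bases, 13.2% of its length, SLC25A5 overlaps SLC25A5-AS1 on the other strand, and the strand setting of the counting is not given in the sources.

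SLC25A4 (chromosome 4, 185143266 to 185150382) had 58.3, 52.2 and 48.1 CPM with enzalutamide, against 45.4, 42.1 and 41.1 CPM in DMSO. The groups did not overlap, and the log2 change was 0.30 ± 0.11 (edgeR adjusted p = 0.0349). This call is fragile: without enzalutamide replicate 2 or without any 1 DMSO replicate the adjusted p was 0.063 to 0.146, and the direction held. The log2 ratio of SLC25A4 to SLC25A5 CPM was -1.66, -1.45 and -1.29 with enzalutamide, against -3.09, -3.24 and -3.22 in DMSO. The ratio was higher in each enzalutamide library, by 1.72 on average (exact permutation p = 0.1, adjusted 0.2 over 8 pairs). Even so, SLC25A5 still held 89.5 ± 1.18% of the pair's summed RPKM with enzalutamide and 96.6 ± 0.193% in DMSO (SD, n = 3 each). This share depends on the deposited gene lengths, 1555 bases for SLC25A5 and 4819 bases for SLC25A4. In mean CPM SLC25A5 was also above SLC25A4, by less, at 148 against 52.8 with enzalutamide and 389 against 42.9 in DMSO. The coding sequences of the pair are identical at 77.2% of aligned bases, and the longest identical run is 14 bases, shorter than a read of 100 bases.

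Upstream sequences are shown for 4 members, chosen after their values were seen: the ADP/ATP carriers, which moved in opposite directions, and the aspartate/glutamate carrier SLC25A13 and the pyrimidine nucleotide carrier SLC25A33, which both fell and hold an E-box. Other members past the threshold hold searched motifs too and are named below. Each is the 250 bases before the start site, from RefSeq with build GRCh38.p14, 5′ to 3′ on the gene's strand, and capitals mark the motif. In SLC25A13 (chr7:96322099-96322348, minus strand) the E-box begins 154 bases before the start. In SLC25A33 (chr1:9539215-9539464, plus strand) it begins 26 bases before the start. The bases after the start of SLC25A33 were not found in the transcript searched, as they were for SLC25A13, SLC25A4 and SLC25A5. Its position is therefore less certain. In SLC25A4 (chr4:185143016-185143265, plus strand) the ETS core begins 154 bases before the start. In SLC25A5 (chrX:119468194-119468443, plus strand) the capitals are the reverse complement of AGAACA, a single arm of the androgen response element and not the whole element, and begin 233 bases before it.
SLC25A13: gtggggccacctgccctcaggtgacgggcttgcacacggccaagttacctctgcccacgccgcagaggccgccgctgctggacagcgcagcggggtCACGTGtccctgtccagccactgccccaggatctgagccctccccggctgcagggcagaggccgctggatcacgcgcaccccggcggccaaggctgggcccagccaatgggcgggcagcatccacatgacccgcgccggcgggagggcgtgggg
SLC25A33: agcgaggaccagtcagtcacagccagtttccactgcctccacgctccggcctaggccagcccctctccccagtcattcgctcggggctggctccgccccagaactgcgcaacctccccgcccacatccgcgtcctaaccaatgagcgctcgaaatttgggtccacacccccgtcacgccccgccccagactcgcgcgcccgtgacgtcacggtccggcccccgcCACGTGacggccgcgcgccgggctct
SLC25A4: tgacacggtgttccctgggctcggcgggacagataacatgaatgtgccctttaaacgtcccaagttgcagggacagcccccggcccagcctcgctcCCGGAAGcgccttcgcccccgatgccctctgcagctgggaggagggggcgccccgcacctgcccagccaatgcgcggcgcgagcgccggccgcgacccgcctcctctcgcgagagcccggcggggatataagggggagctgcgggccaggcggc
SLC25A5: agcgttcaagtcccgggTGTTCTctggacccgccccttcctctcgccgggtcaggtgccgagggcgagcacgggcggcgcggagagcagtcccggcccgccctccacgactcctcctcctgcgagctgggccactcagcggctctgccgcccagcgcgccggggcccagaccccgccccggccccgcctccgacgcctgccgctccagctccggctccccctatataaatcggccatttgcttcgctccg
All 4 stretches are rich in G and C, at 70.4 to 73.6%.

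Short motifs were searched on both strands in promoters of 250 bases before and 50 bases after the start, with 40 promoters of 33 members among 35116 in the table. The E-box CACGTG was in 7 member promoters (17.5%), against 7.26% of all promoters and 9.20% of those of protein-coding genes tested. Of the 7 members that hold it, SLC25A13, SLC25A22 and SLC25A33 fell, SLC25A36, SLC25A38, SLC25A46 and SLC25A51 did not pass the test, and 0 rose. The ETS core CCGGAAG was in 8 member promoters (20%), against 10.3% of all promoters and 16.5% of protein-coding ones. Its members were split, with SLC25A4 and SLC25A17 higher, SLC25A20 and SLC25A22 lower, and SLC25A14, SLC25A25, SLC25A38 and SLC25A46 not past the threshold.

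The other motifs were in 4 or 0 member promoters. The E2F core TTCCCGC was in 4 member promoters (10.0%), those of SLC25A3, SLC25A11, SLC25A17 and SLC25A45, against 6.55% of all and 9.45% of protein-coding ones. AGAACA, the single arm of an androgen response element, was in 4 (10.0%), those of SLC25A5, SLC25A36, SLC25A38 and SLC25A44, against 14.8% and 9.71%. The NRF1 core GCATGCGC was in 0 member promoters, against 3.05% of all promoters and 4.76% of protein-coding ones. The element TTGCATCA was in 0 too, against 0.866% and 0.537%. A match is a description of these letters in these windows and not a binding site.

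Among the other carriers of adenine nucleotides, phosphate and the uncoupling type, few moved. The group had 9 members, of which SLC25A4 rose, SLC25A3 and SLC25A5 fell and 6 did not pass. The median log2 change was -0.03. SLC25A3 (chromosome 12, 98593591 to 98606379), which imports phosphate for ATP synthesis, had 489.5, 381 and 346 CPM with enzalutamide, against 496, 527 and 496 CPM in DMSO. Enzalutamide replicate 1 lay close to the DMSO values and the other enzalutamide libraries below them, and the log2 change was -0.32 ± 0.13 (edgeR adjusted p = 0.0484). That call was lost in 9 of the 14 alternatives other than the test against a log2 change of 1, with an adjusted p of 0.191 under upper quartile scaling.

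The uncoupling-type carriers SLC25A14 and SLC25A30 overlapped between the groups. SLC25A14 had 14.7, 15.0 and 15.2 CPM with enzalutamide, against 14.4, 15.0 and 14.9 CPM in DMSO. SLC25A30 had 86.5, 107 and 113 CPM with enzalutamide, against 105, 108 and 104 CPM in DMSO. Their log2 changes of 0.02 ± 0.11 and -0.05 ± 0.11 did not pass (edgeR adjusted p = 0.883 and 0.718), and the difference in their log2 ratio was 0.08 (exact permutation p = 0.8). SLC25A27, the remaining uncoupling-type carrier, and SLC25A23, SLC25A25 and SLC25A41, which exchange ATP-Mg for phosphate, did not pass either, with log2 changes of -0.04 to 0.35. SLC25A41 rested on 11 to 15 counts per enzalutamide library and 5 to 11 per DMSO library.

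Carboxylate carriers link the citric acid cycle to the cytosol, and the genes listed with them moved in both directions. Of 6 members, 2 rose, both of them orphan members of the family. Another 3 fell and SLC25A21, which carries oxodicarboxylates, did not pass. The median was -0.45. SLC25A10, the dicarboxylate carrier (chromosome 17, 81712236 to 81721016), had 9.18, 5.69 and 4.54 CPM with enzalutamide, against 24.1, 24.7 and 21.8 CPM in DMSO. It fell 3.62-fold without overlap (log2 change -1.86 ± 0.22, edgeR adjusted p = 5.41e-05). SLC25A1, which exports citrate to the cytosol (chromosome 22, 19175581 to 19178739), had 71.9, 48.7 and 41.9 CPM with enzalutamide, against 79.6, 92.1 and 85.4 CPM in DMSO. Its enzalutamide replicate 1 was nearest to DMSO, the groups did not overlap, and it fell 1.58-fold (log2 change -0.66 ± 0.18, adjusted p = 0.00875).

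SLC25A11, which exchanges oxoglutarate for malate (chromosome 17, 4937130 to 4940053), had 79.1, 54.0 and 47.7 CPM with enzalutamide, against 85.0, 94.3 and 85.2 CPM in DMSO. It fell 1.46-fold without overlap (log2 change -0.55 ± 0.17, edgeR adjusted p = 0.0179), but the adjusted p was 0.053 to 0.0698 without enzalutamide replicate 2, enzalutamide replicate 3 or DMSO replicate 2. SLC25A10 fell by more than SLC25A11. Their log2 ratio was -3.10, -3.24 and -3.38 with enzalutamide, against -1.82, -1.93 and -1.97 in DMSO, a difference of -1.33 without overlap (exact permutation p = 0.1, adjusted 0.2).

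The carboxylate list also holds SLC25A34 and SLC25A35, orphan members of the family, and these were the ones that rose. SLC25A34 (chromosome 1, 15736258 to 15741392) had 2.78, 2.85 and 2.31 CPM with enzalutamide, against 0.410, 0.737 and 0.707 CPM in DMSO. In reads these were 146, 151 and 97 counts with enzalutamide and 15, 31 and 25 counts in DMSO. It rose 4.25-fold, the highest fold among the members, from a low level (log2 change 2.09 ± 0.23, edgeR adjusted p = 2.63e-05). SLC25A35 (chromosome 17, 8287763 to 8295400) had 27.5, 22.3 and 22.2 CPM with enzalutamide, against 14.2, 15.2 and 15.0 CPM in DMSO, and rose 1.62-fold (log2 change 0.70 ± 0.12, adjusted p = 0.000754). Over 1134 exonic bases, 28.7% of its length, SLC25A35 overlaps RANGRF on the other strand, so its value is uncertain.

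Amino acid carriers also moved in both directions. Of 9 members, 2 rose, 3 fell and SLC25A18, SLC25A38, SLC25A44 and SLC25A45 did not pass. The median was -0.21. SLC25A12 and SLC25A13 are the aspartate/glutamate carriers of the malate-aspartate shuttle, which brings reducing equivalents into the matrix. SLC25A13 (chromosome 7, 96120220 to 96322147), shown above with its E-box, had 38.3, 35.8 and 34.7 CPM with enzalutamide, against 66.1, 67.1 and 66.3 CPM in DMSO. It fell 1.83-fold, the enzalutamide and DMSO values lying well apart (log2 change -0.87 ± 0.10, edgeR adjusted p = 2.7e-05).

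SLC25A12 (chromosome 2, 171783405 to 171999859) had 24.7, 29.6 and 28.9 CPM with enzalutamide, against 22.8, 22.1 and 21.98 CPM in DMSO. All enzalutamide values were above all DMSO values (log2 change 0.32 ± 0.11, edgeR adjusted p = 0.0334), but the adjusted p was 0.0775 to 0.124 when any 1 library other than enzalutamide replicate 1 was left out. The log2 ratio of SLC25A12 to SLC25A13 was -0.63, -0.28 and -0.27 with enzalutamide, against -1.54, -1.60 and -1.59 in DMSO. The ratio was higher by 1.18 on average without overlap (exact permutation p = 0.1, adjusted 0.2). Per length, SLC25A12 averaged 4.53 RPKM with enzalutamide and 3.64 RPKM in DMSO, and SLC25A13 averaged 9.78 RPKM with enzalutamide and 17.9 RPKM in DMSO. SLC25A13 thus remained the more abundant of the pair in both groups.

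SLC25A15, the ornithine carrier of the urea cycle (chromosome 13, 40789412 to 40812460), had 34.5, 31.2 and 32.9 CPM with enzalutamide, against 73.0, 78.5 and 71.8 CPM in DMSO. It fell 2.27-fold with little spread in either group (log2 change -1.18 ± 0.10, edgeR adjusted p = 3.83e-06), and GENCODE 29 lists 5 pseudogenes of it. SLC25A22, a glutamate carrier (chromosome 11, 790475 to 798281), had 14.9, 10.2 and 8.53 CPM with enzalutamide, against 27.4, 28.6 and 28.1 CPM in DMSO. It fell without overlap of the groups (log2 change -1.32 ± 0.18, adjusted p = 0.000159). SLC25A22 shares 452 exonic bases (9.84% of its length) with PANO1 on the other strand, so its value is uncertain. Its paralog SLC25A18 had 0.912, 0.624 and 0.974 CPM with enzalutamide, against 1.15, 1.05 and 0.735 CPM in DMSO. These overlapped and did not pass (log2 change -0.24 ± 0.25, adjusted p = 0.448). The log2 ratio of SLC25A22 to SLC25A18 was 3.97, 3.93 and 3.07 with enzalutamide, against 4.52, 4.72 and 5.17 in DMSO. The difference was -1.15 without overlap (exact permutation p = 0.1, adjusted 0.2). SLC25A18 rested on 33 to 48 counts per enzalutamide library and 26 to 44 per DMSO library.

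SLC25A29, which carries basic amino acids (chromosome 14, 100291116 to 100306547), moved the other way. It had 136, 119 and 115 CPM with enzalutamide, against 52.7, 55.7 and 56.9 CPM in DMSO. Every enzalutamide value was above every DMSO value, and it rose 2.24-fold (log2 change 1.16 ± 0.10, edgeR adjusted p = 5.22e-06), to 16.6 RPKM with enzalutamide, against 7.40 RPKM in DMSO. SLC25A15 and SLC25A29, which both accept ornithine, had 7.85 and 16.6 RPKM with enzalutamide and 17.8 and 7.40 RPKM in DMSO, so their order by level was turned. SLC25A38, which brings glycine in for heme synthesis, and SLC25A44, which carries branched-chain amino acids, had log2 changes of -0.07 and 0.18 (adjusted p = 0.61 and 0.189). SLC25A45 had -0.21 (adjusted p = 0.176).

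**Figure D4:**
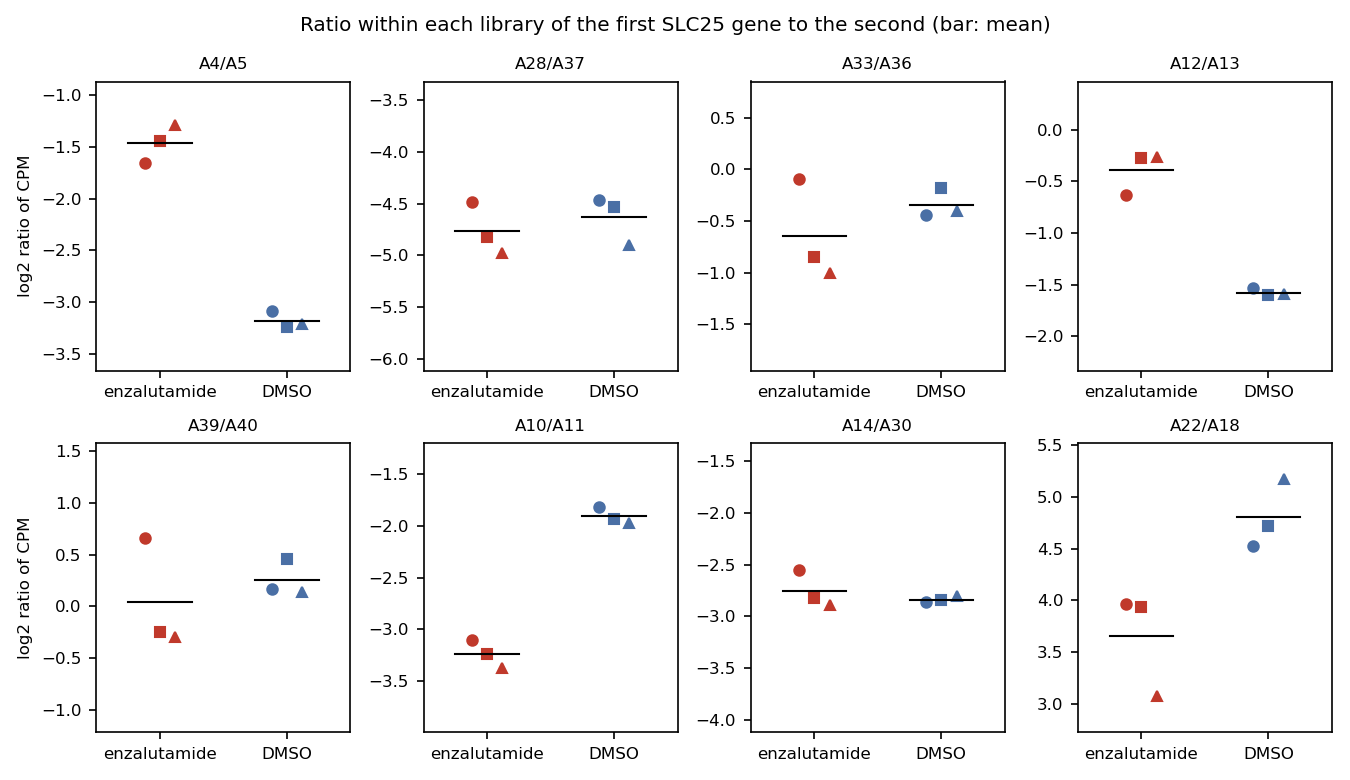
Log2 ratio of CPM, with edgeR's small prior count, between the genes of 8 paralog pairs in each library, enzalutamide left of DMSO. Circles, squares and triangles mark replicates 1, 2 and 3 and a bar the mean (SLC25 left off the names above the panels). The groups do not overlap for SLC25A4/SLC25A5, SLC25A12/SLC25A13, SLC25A10/SLC25A11 and SLC25A22/SLC25A18, and overlap for the other 4 pairs.

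Carriers of cofactors and nucleotides were lower more often than higher. Of 10 members, SLC25A17 rose, 4 fell, among them SLC25A20, SLC25A32 and SLC25A33, and 5 did not pass. The median was -0.35. SLC25A32, which carries folate and FAD, was at a low level. It had 2.83 to 3.33 CPM with enzalutamide and 4.98 to 6.15 CPM in DMSO, and fell 1.80-fold (edgeR adjusted p = 0.000536). SLC25A32 overlaps DCAF13 on the other strand over 406 exonic bases (11.1% of its length), so its value is uncertain.

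SLC25A33 and SLC25A36 carry pyrimidine nucleotides into the matrix. SLC25A33 (chromosome 1, 9539465 to 9585173), whose promoter is shown above, had 77.4, 72.4 and 68.4 CPM with enzalutamide, against 114, 113 and 114 CPM in DMSO. It fell 1.56-fold without overlap (log2 change -0.64 ± 0.09, edgeR adjusted p = 0.000174). SLC25A36 had 82.6, 130.0 and 137 CPM with enzalutamide, against 155, 128 and 150.25 CPM in DMSO. Enzalutamide replicate 1 was far below the other enzalutamide libraries, the groups overlapped, and the change did not pass (log2 change -0.31 ± 0.17, adjusted p = 0.154). The difference in their log2 ratio, -0.31, lay within the spread (exact permutation p = 0.4).

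SLC25A17, which carries coenzyme A and related cofactors into peroxisomes (chromosome 22, 40769630 to 40819399), had 175, 171 and 156 CPM with enzalutamide, against 112, 109.6 and 111 CPM in DMSO. It rose 1.51-fold without overlap (log2 change 0.59 ± 0.09, edgeR adjusted p = 0.000245), to 42.0 RPKM with enzalutamide, against 27.8 RPKM in DMSO. SLC25A20, which exchanges acylcarnitines for carnitine in fatty acid oxidation, had 25.4, 20.7 and 20.03 CPM with enzalutamide, against 29.8, 29.5 and 28.03 CPM in DMSO. It fell 1.32-fold (log2 change -0.40 ± 0.12, adjusted p = 0.0164), with an adjusted p of 0.061 to 0.0659 without enzalutamide replicate 2, DMSO replicate 1 or DMSO replicate 2. SLC25A16, SLC25A42, a coenzyme A carrier, SLC25A48 and SLC25A51, a NAD carrier, did not pass, with log2 changes of -0.59 to 0.22. Without enzalutamide replicate 1, SLC25A16 rose by 0.32 on the log2 scale (adjusted p = 2.88e-05).

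Iron and glutathione carriers were all lower by small amounts. All 4 members fell, with a median of -0.43, but the number that passed was 1 under upper quartile scaling and 2 without DMSO replicate 2 or without DMSO replicate 3. SLC25A37 and SLC25A28, the mitoferrins, import iron. SLC25A37 had 151, 159 and 169 CPM with enzalutamide, against 187, 201 and 200.3 CPM in DMSO (log2 change -0.30 ± 0.09, edgeR adjusted p = 0.0154), without overlap. SLC25A28 had 6.69, 5.58 and 5.32 CPM with enzalutamide, against 8.45, 8.67 and 6.68 CPM in DMSO (log2 change -0.44 ± 0.15, adjusted p = 0.0292). The highest enzalutamide value of SLC25A28 lay just above the lowest DMSO value.

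SLC25A39 and SLC25A40 import glutathione, the main thiol of the matrix. SLC25A39 had 54.7, 36.6 and 35.1 CPM with enzalutamide, against 62.4, 69.3 and 62.9 CPM in DMSO (log2 change -0.62 ± 0.16, edgeR adjusted p = 0.00777). SLC25A40 had 34.6, 43.4 and 43.2 CPM with enzalutamide, against 55.8, 50.5 and 57.3 CPM in DMSO (log2 change -0.43 ± 0.12, adjusted p = 0.0104). The groups did not overlap in either gene. Enzalutamide replicate 1 was the highest enzalutamide library for SLC25A39 and the lowest for SLC25A40. The log2 ratios of SLC25A39 to SLC25A40 and of SLC25A28 to SLC25A37 differed by -0.21 and -0.13, within the spread (exact permutation p = 0.6 each). SLC25A46, a carrier-like protein of the outer membrane, and SLC25A53 did not pass, with log2 changes of -0.07 and 0.39.

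Several of the falls were smaller in enzalutamide replicate 1. It was the highest enzalutamide library in 13 of the 16 members that fell, and in 23 of all 40 members (57.5%), against 43.6% of all genes. Enzalutamide replicate 3 was the lowest in 11 of the 16. Without enzalutamide replicate 1, 8 members rose and 18 fell, with SLC25A16 and SLC25A53 added to those higher and SLC25A38 and SLC25A45 to those lower. Mitochondrial transcripts took 12.1, 13.6 and 15.7% of counts in enzalutamide replicates 1, 2 and 3, and their part in this was not tested.

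The proteins that work beside the carriers were read from the same test. Of 12 genes of the import path that brings carriers to the inner membrane, 9 fell, TIMM10B rose and 2 did not pass. The median was -0.58. TIMM8A, a small chaperone of the intermembrane space, averaged 14.7 ± 1.09 CPM with enzalutamide and 41.6 ± 0.854 CPM in DMSO (SD, n = 3 each; log2 change -1.50). TOMM40, the outer membrane import pore, averaged 22.5 ± 5.42 CPM with enzalutamide and 60.4 ± 0.836 CPM in DMSO (-1.43). TIMM10, a partner of TIMM9, averaged 16.9 ± 3.38 CPM with enzalutamide and 34.9 ± 1.10 CPM in DMSO (-1.04). In 7 of those 14 alternatives TIMM13 and TOMM22 did not pass. All 3 outer membrane channels VDAC1, VDAC2 and VDAC3 fell, with log2 changes of -0.63, -0.38 and -0.47, and VDAC2 did not pass under upper quartile scaling.

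Other transporters of the inner membrane were mixed, with 1 higher and 5 lower of 13 and a median of 0.01. The subunits of the pyruvate carrier moved in opposite directions. MPC2 averaged 253 ± 17.3 CPM with enzalutamide and 619 ± 12.2 CPM in DMSO (SD, n = 3 each; log2 change -1.29, edgeR adjusted p = 8.61e-07). MPC1 averaged 35.5 ± 2.08 CPM with enzalutamide and 18.5 ± 0.536 CPM in DMSO (0.94, adjusted p = 3.15e-05). The sideroflexins SFXN1, a serine transporter, and SFXN2 fell, by 0.92 and 1.29 on the log2 scale.

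Enzymes that share substrates with the carriers moved as follows. Of the malate-aspartate shuttle enzymes, GOT1 (-0.86), GOT2 (-0.42) and MDH2 (-0.41) fell and MDH1 did not pass. The MDH2 groups overlapped, and its call was lost in 7 of those 14 alternatives. Without enzalutamide replicate 2, GOT1 alone of them passed. Of 5 citrate enzymes, ACLY, which splits exported citrate (-0.98), ME1 (-0.89) and CS, which makes citrate (-0.54), fell, and ACO1, the cytosolic aconitase, rose (1.25). In the carnitine system, 3 of 6 rose, among them CPT1C at 3.80 CPM with enzalutamide and 0.527 CPM in DMSO (log2 change 2.84). CPT2 (-0.55) and CPT1B (-0.64) fell, the CPT1B call being lost in 10 of those 14 alternatives. CPT1A, the highest of the 6 in CPM, averaged 379 CPM in both groups and did not pass (log2 change 0.0014, edgeR adjusted p = 0.992).

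One-carbon and heme enzymes of mitochondria were lower where they moved most. Of 6 one-carbon genes, MTHFD1L (-2.45), MTHFD2 (-1.77) and SHMT2 (-1.31) fell and 3 did not pass. Of 14 heme and iron-sulfur genes, 3 rose, 4 fell and 7 did not pass. Their median was -0.14. ABCB10 (-1.28), CPOX (-1.21) and FECH, the last enzyme of heme synthesis (-1.20), fell, while ALAD, an early enzyme, rose (0.95). Without enzalutamide replicate 1 the fallen heme and iron-sulfur genes numbered 7.

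Known transcriptional regulators of mitochondrial genes were mostly lower. Of 10 genes, 9 fell and NRF1 did not pass (0.01), with a median of -0.75. PPARGC1A, a coactivator of mitochondrial biogenesis, averaged 0.131 CPM with enzalutamide and 1.16 CPM in DMSO (log2 change -3.09). It rested on few reads, with 9, 8 and 3 counts with enzalutamide and 26, 63 and 45 counts in DMSO. PPARGC1B fell by 1.43 and PPRC1 by 1.13 on the log2 scale. The TFB1M call was lost under upper quartile scaling (edgeR adjusted p = 0.147) and with a replicate block (0.0833). It was also lost when any 1 library other than enzalutamide replicate 1 was left out (0.0523 to 0.101). Each list's count stands beside the 30.0% of genes that rose and 29.2% that fell over the whole table.

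**Figure D5:**
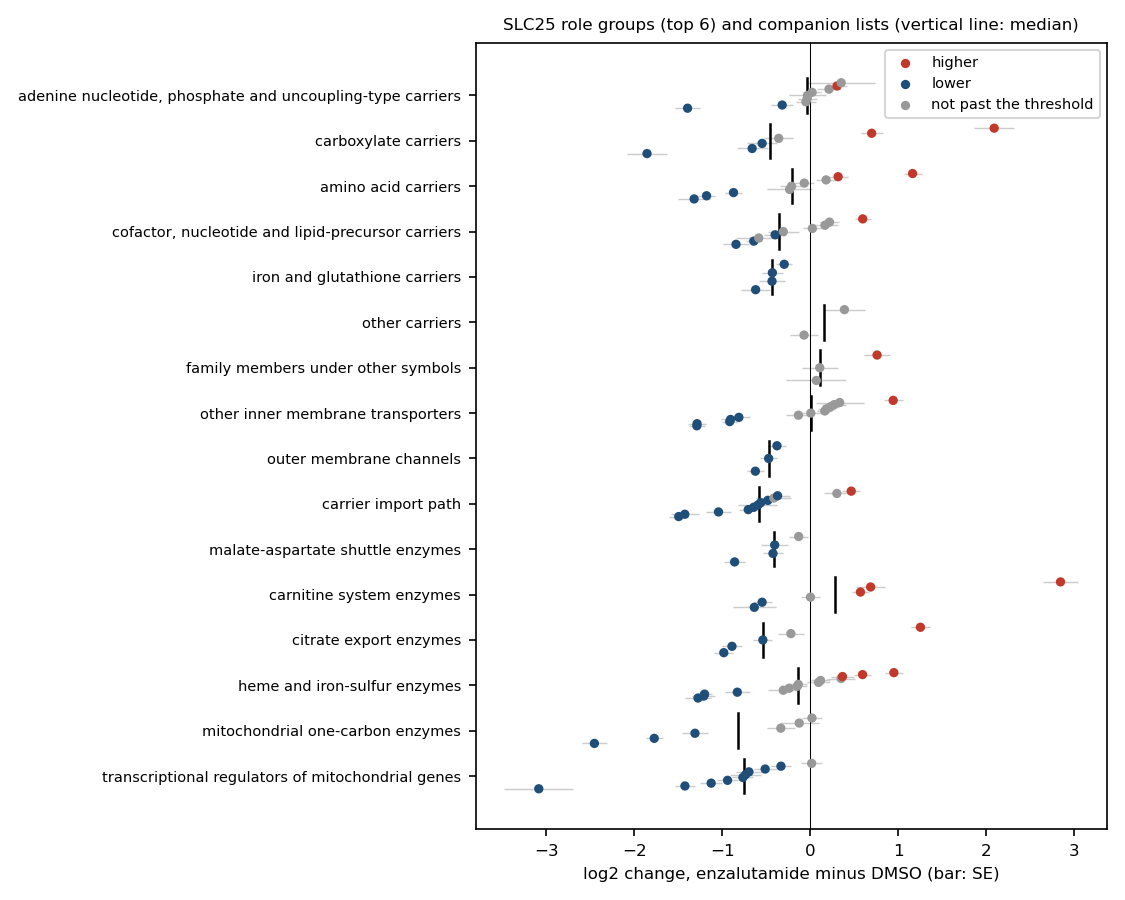
Log2 change (enzalutamide minus DMSO, SE bars) of each gene in the 6 SLC25 role groups and the companion lists, with the median of each full list as a vertical mark; 1 cofactor carrier is not drawn. Iron and glutathione carriers lie between -0.62 and -0.30, while the carboxylate list, which includes the orphans SLC25A34 and SLC25A35, spans -1.86 to 2.09.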

How the data were processed

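The submitters' processing notes name hg38 as the build and, as tools of the authors, edgeR 3.20.8, featureCounts, STAR 2.5, Subread 1.6.5 and bcl2fastq. The deposited table holds whole-number read counts per gene, per the file headers. It also holds the authors' log2 values and p-values, used here only for comparison: in the authors' deposited table, of the members 22 had a false discovery rate under 0.05, 6 higher and 16 lower. The table had been filtered, since the third highest count of any gene was at least 9, and genes outside it are not analysed here. It includes 236 genes on alternate scaffolds.

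Counts were tested in edgeR 4.0.16 (R 4.3.3) with TMM scaling and its robust quasi-likelihood F test, with group as the sole term, 4 residual degrees of freedom and Benjamini-Hochberg adjustment over 18164 genes at 0.05. The filterByExpr filter removed none. SE is the log2 change divided by the root of F. The biological coefficient of variation was 12.3%. CPM are TMM-scaled, and RPKM divide them by the deposited gene length. Members and lists were chosen with earlier results of these data known. Full values go to members past the threshold and changed at least 2-fold at a mean of at least 1 CPM, to the 4 highest levels and to paralog pairs, and up to 3 genes are named per companion list, by size of change. SLC25A20 and SLC25A35 are given in full besides, chosen after their values were seen, and so were the promoters shown. Other genes named, SFXN1, ALAD, CS, CPT2, TIMM10B, TIMM13 and TOMM22 among them, were chosen after their values were seen. Of 12 listed pairs, 8 had both genes. Pairs and sums were compared by exact two-sided permutation. Pair ratios are differences of edgeR's log2 CPM, which adds a small prior count. For genes with few reads they therefore differ a little from ratios of the CPM given. Coding sequences are the longest open reading frames of GENCODE 29 transcripts, aligned with Biopython 1.88. Protein identity, which had been planned, was not computed. Some genes are not reported here.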

Additional observations from a re-analysis of the deposited data

How the results depend on the processing

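Of the 22 members past the threshold, 14 kept their call in all 14 alternatives other than the test against a log2 change of 1: SLC25A17, SLC25A29, SLC25A34 and SLC25A35 higher, and 10 lower, among them SLC25A1, SLC25A5, SLC25A10, SLC25A13, SLC25A15, SLC25A22, SLC25A32, SLC25A33 and SLC25A39. The other 8 lost it in at least 1: SLC25A3, SLC25A4, SLC25A11, SLC25A12, SLC25A20, SLC25A28, SLC25A37 and SLC25A40. Against a log2 change of 1, 2965 genes passed, 1647 higher and 1318 lower, among them 1 member higher (SLC25A34) and 3 lower (SLC25A5 and SLC25A10 among them), by the stricter construction of that test. Under upper quartile scaling the members' median was -0.10 while that of all genes was 0.12, and 59.5% of calls were higher, against 50.7% with TMM. SLC25A3, SLC25A20, SLC25A28, SLC25A37 and SLC25A40 were lost there and SLC25A16 (adjusted p = 0.018) and SLC25A44 (0.0341) passed. DESeq2 1.42.0, limma-voom 3.58.1 and the edgeR exact test each gave 6 higher and 16 lower, library size alone and a filter of 1 CPM in 3 libraries 6 and 15.

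Leaving out 1 library at a time gave 4 to 8 members higher, 11 to 18 lower and a median of -0.25 to -0.17. Over all genes it gave 9151 to 12924 changed, 4672 to 6463 higher and 4474 to 6461 lower. Between 4 and 6 paralog pairs did not overlap, the 6 without enzalutamide replicate 1. With a pseudocount of 1 CPM the difference in the SLC25A10 to SLC25A11 ratio was -1.19, by construction nearer to 0. Deviations from the group means had correlations of -0.15, -0.14 and 0.05 for same-numbered libraries and -0.15 to 0.22 for differently numbered ones. No pairing by number was visible, but with so few libraries this cannot show that the cultures were unpaired. With a replicate block 4 members were higher and 15 lower, with 5084 and 5090 of all genes. An alternative without a filter gives the same values, since none was removed. SLC25A18, SLC25A41 and SLC25A48, the members at the lowest levels, had an SE of 0.25 to 0.38 on the log2 scale.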

Other observations

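Among genes of the same protein family under other symbols, MTCH1, a carrier-like protein of the outer membrane, averaged 183 ± 40.3 CPM with enzalutamide and 108 ± 4.91 CPM in DMSO (SD, n = 3 each) and rose by 0.76 on the log2 scale (edgeR adjusted p = 0.00111). UCP3 (0.11) and MTCH2 (0.07) did not pass, and MTCH2 was at 0.389 CPM with enzalutamide and 0.378 CPM in DMSO. That count is very low for a gene known to be broadly expressed, the reason is not known, and the value should not be read as its expression level. UCP1 and UCP2 are not analysed here.

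Antisense genes of 4 members were also measured. SLC25A5-AS1 had 8.74, 8.49 and 8.82 CPM with enzalutamide, against 5.31, 5.08 and 5.12 CPM in DMSO, and rose (log2 change 0.75 ± 0.12, edgeR adjusted p = 0.000303) where SLC25A5 fell. SLC25A30-AS1 rose by 0.69, SLC25A25-AS1 fell by 0.55 on the log2 scale, and SLC25A21-AS1 did not pass (0.26). Without a known strand setting, reads of overlapping exons cannot be assigned to either gene.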
